A study of Mus musculus with 9 samples.

Results

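Peroxisomes are single-membrane organelles that oxidise lipids, and the 30 genes described here were chosen by symbol as genes of their assembly and enzymes. They comprise 11 peroxin genes of the import machinery, 3 ABCD transporter genes, 15 genes of lipid enzymes and catalase, out of 22637 gene symbols measured. All 30 were found and all 30 passed the filter on low counts, which kept 17315 symbols. Whole-kidney RNA of 129X1/SvJ mice aged 9 weeks was sequenced in 9 libraries. Of these, 3 came from Col4a3-/- mice given antimiR-21 (KO_antimiR21), 3 from Col4a3-/- mice given PBS (KO_PBS) and 3 from wild type mice that received no treatment (WT). Col4a3 encodes a chain of type IV collagen of the glomerular basement membrane, and its loss is used in mice as a model of Alport syndrome, a hereditary kidney disease. AntimiR-21 is an inhibitor of the microRNA miR-21. The sources used here do not give its dose or schedule, and because the WT mice had no injection, a difference between KO_PBS and WT holds genotype and injection together. By Y-linked transcripts all knockout libraries were male, while WT held both sexes. A difference between knockout and WT therefore holds sex in part as well.

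Peroxisomes take up finished proteins from the cytosol. The receptors Pex5 and Pex7 bind targeting signals on the cargo, Pex13 and Pex14 form the docking complex at the membrane, the RING protein Pex10 helps ubiquitinate the receptor, and the ATPase Pex6, held at the membrane by Pex26, extracts it again. Pex3, Pex16 and Pex19 insert membrane proteins, and Pex11a acts in organelle proliferation. Inside, acyl-CoA oxidases, bifunctional enzymes and thiolases shorten very-long-chain and branched fatty acids and bile acid intermediates, with hydrogen peroxide as a by-product that catalase breaks down. In the kidney, peroxisomes are most abundant in the proximal tubule.

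The microRNA that the inhibitor is directed at is shown first, with its seed (bases 2 to 8) in capitals, because 5 of the 30 genes carry a match to it in the 3′ untranslated region. The mature strand lies at chr11:86584120-86584141 on the minus strand of GRCm38.p6 and is given as in RefSeq.
mmu-miR-21a-5p: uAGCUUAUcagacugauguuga
Sites were searched on the transcribed strand as ATAAGCTA (8mer), ATAAGCT (7mer-m8) or TAAGCTA (7mer-A1), and the site of each gene is in capitals within its flanks, from the GENCODE vM21 transcripts.
Pex7: cacagctgaATAAGCTgacttgaaa
Pex10: ttttgtcacATAAGCTActacagtta
Pex13: aaataattcATAAGCTAcagtaagaa
Abcd2: gcagtatgtTAAGCTAagtgcagag
Acot8: gtcagagagTAAGCTAtagtgaaag
These 5 genes were 16.7% of the 30, against 12.2% of the 13968 tested genes with an untranslated region to search. Binding at a match was not measured.

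Libraries held 26448275 to 31786624 expected counts each, and levels are given as CPM, counts scaled to library size after TMM normalization, which compare libraries for one gene but not genes with each other. Col4a3 had 104, 70.5 and 138 CPM in KO_antimiR21 kidneys, 44.3, 94.3 and 60.2 CPM in KO_PBS kidneys and 371, 257 and 316 CPM in WT kidneys. It was thus lower in all knockouts than in all WT libraries but not at 0, and which part of the gene the remaining counts come from was not tested. The column names mark WT 2 as M and WT 1 and WT 3 as F. Y-linked transcripts matched these marks and put all knockouts with the males, with 100.8 to 120.2 CPM in 7 libraries, against 0.83 and 1.38 CPM in WT 1 and WT 3. The column names also held a code, whose meaning the sources used here do not give. All WT libraries and KO_PBS 1 and 2 had L4, while all KO_antimiR21 libraries and KO_PBS 3 had L5. KO_PBS 1 stood apart: it was the lowest of the 9 libraries for 27 of the 30 genes, against 17.6% of all genes tested. Each library has its own number in its column name, but the labels do not say that it marks an animal, so p-values measure the spread between these libraries, of whatever source. In whole tissue, fewer cells of a type and less RNA per cell cannot be told apart.

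In KO_PBS kidneys, 15 of the 30 peroxisomal genes were lower than in WT kidneys and none was higher. These calls (edgeR quasi-likelihood test, adjusted p under 0.05) stand beside 24.4% of all genes tested called in either direction, 9.85% called lower and 14.6% called higher. Import machinery and lipid enzymes were both represented, with 6 of 11 and 7 of 15 called, together with the transporter Abcd3 and catalase. The sign of the fold change was negative for 29 of 30 genes, against 52.3% of all genes, and in 24 of 30 every KO_PBS library lay below every WT library, against 20.5% of all genes. The median log2 fold change was -0.61 over the import machinery and -0.92 over the lipid enzymes, against -0.03 over all genes. The limma fit on the authors' log2 matrix, which is a rescaling of the same counts and not a separate measurement, called the same 15 genes. The calls depended on the libraries used. With sex as a term in the fit, or in the 7 male libraries, which include a single WT library, no gene of the whole table was called, and both fits set the knockouts against that library. The medians were negative in both fits: the lipid enzymes had a median of -1.26 with sex as a term and -1.23 in male libraries, and the import machinery -0.48 and -0.45. The male libraries gave a negative sign for 28 of 30 peroxisomal genes, with Pex26 and Hacl1 positive, against 8159 of 17315 genes. Without KO_PBS 1, the calls numbered 3 (Pex7, Acox2 and Cat) with medians of -0.55 and -0.80. They numbered 8 without KO_PBS 2, 8 without WT 1 and 7 without WT 3. The share of all genes called lower fell as well, from 9.85% to 3.8% without KO_PBS 1 and 4.4% without KO_PBS 2. It was 5.52% without WT 1 and 5.56% without WT 3. By gene, with each of the 9 libraries left out in turn, the call held 9 times for Pex7 and Cat, 8 times for Acox2, Scp2 and Decr2, and 7 times for Pex3. It held 5 times for Pex6, Pex10, Pex13, Pex16, Acaa1b, Ech1 and Acot8, 4 times for Abcd3 and 2 times for Phyh. In 3 of these 9 fits the library left out was from KO_antimiR21, which is in neither group of this comparison. All calls but those of Abcd3 and Phyh held in all 3 of those fits. Phyh held only in such fits, and its call was lost when any KO_PBS or WT library was left out (edgeR adjusted p = 0.0583 to 0.127). With library code as a term, Pex10, Pex13 and Phyh were no longer called (edgeR adjusted p = 0.0652, 0.0604 and 0.0655), and among L4 libraries Pex13 and Abcd3 were not (edgeR adjusted p = 0.0656 and 0.0552).

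**Figure D1:**
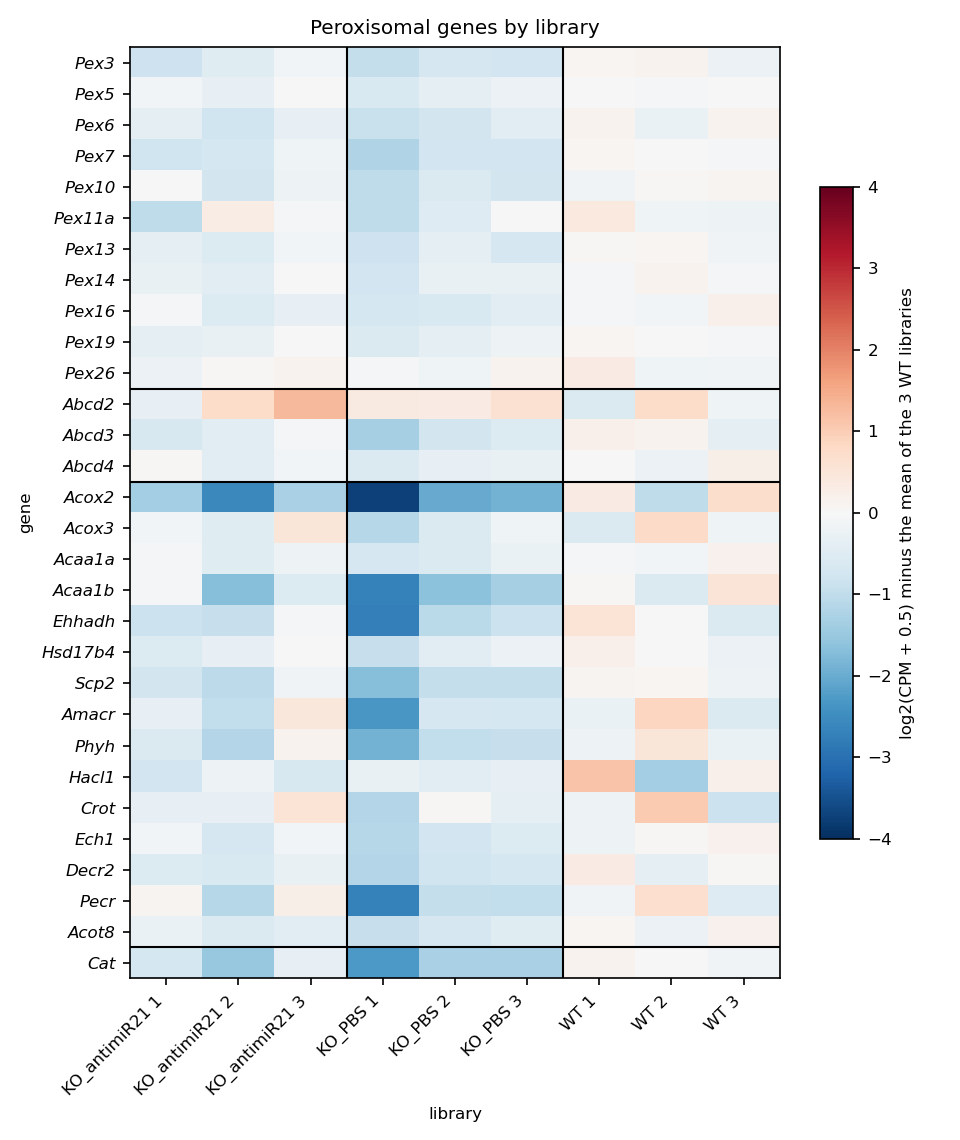
Each row is a gene and each column a library; the colour gives log2(CPM + 0.5) minus the mean of the 3 WT libraries for that gene, and black lines part the groups of libraries and the classes of genes. KO_PBS 1 is the darkest blue column, the lowest of 9 libraries for 27 of 30 genes, and KO_antimiR21 3 is the palest knockout column, the highest of the 6 knockout libraries for 20 of 30 genes.

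The genes that insert peroxisomal membrane proteins were lower in KO_PBS for Pex3 and Pex16. Pex3, the membrane anchor for the chaperone Pex19, had 19.9, 24.9 and 32.4 CPM in KO_antimiR21 kidneys, 17.9, 22.1 and 20.7 CPM in KO_PBS kidneys and 37.7, 39.0 and 30.1 CPM in WT kidneys. All 3 KO_PBS libraries were below all 3 WT libraries, and the log2 fold change was -0.81 ± 0.19 (SE; edgeR adjusted p = 0.0176). Pex16, which recruits Pex3, had 44.4, 30.8 and 35.8 CPM in KO_antimiR21 kidneys, 27.4, 29.7 and 32.9 CPM in KO_PBS kidneys and 42.9, 41.8 and 52.2 CPM in WT kidneys. The KO_PBS and WT values did not overlap, with a log2 fold change of -0.61 ± 0.16 (edgeR adjusted p = 0.0269). Pex19 averaged 82.1 ± 10.5 CPM in KO_PBS and 108 ± 5.69 CPM in WT (SD, n = 3 each), also without overlap, but at -0.39 ± 0.14 it did not pass (edgeR adjusted p = 0.0813).

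Of the cargo receptors, Pex7 passed the test and Pex5 did not. Pex7, the receptor for proteins with an amino-terminal signal, among them the thiolases and phytanoyl-CoA hydroxylase, had 28.8, 30.5 and 44.3 CPM in KO_antimiR21 kidneys, 21.7, 29.6 and 29.6 CPM in KO_PBS kidneys and 52.9, 50.1 and 47.6 CPM in WT kidneys. Every knockout library of either treatment lay below every WT library. Its log2 fold change in KO_PBS against WT, -0.90 ± 0.19, was the largest fall among the 11 peroxins (edgeR adjusted p = 0.0114). Pex5, the receptor for the more common carboxy-terminal signal, averaged 66.4 ± 9.03 CPM in KO_PBS and 87.3 ± 2.75 CPM in WT, a log2 fold change of -0.39 ± 0.14 (edgeR adjusted p = 0.0637). The difference between the receptors' fold changes was not tested.

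The docking protein Pex13, the RING protein Pex10 and the ATPase Pex6 were each lower in KO_PBS. Pex13 had 36.2, 31.8 and 43.0 CPM in KO_antimiR21 kidneys, 26.3, 35.2 and 29.4 CPM in KO_PBS kidneys and 48.6, 49.3 and 42.6 CPM in WT kidneys, with a log2 fold change in KO_PBS against WT of -0.63 ± 0.16 (edgeR adjusted p = 0.0208). Pex10 had 20.2, 11.8 and 17.3 CPM in KO_antimiR21 kidneys, 9.70, 13.1 and 11.7 CPM in KO_PBS kidneys and 18.1, 20.5 and 21.5 CPM in WT kidneys, with -0.80 ± 0.21 (edgeR adjusted p = 0.0269). In both genes the KO_PBS libraries were all below the WT libraries, while KO_antimiR21 overlapped WT at 1 library each. Pex6 had 79.6, 59.8 and 83.3 CPM in KO_antimiR21 kidneys, 56.8, 62.5 and 76.9 CPM in KO_PBS kidneys and 115, 88.5 and 115 CPM in WT kidneys, with -0.70 ± 0.18 (edgeR adjusted p = 0.0236). All 6 knockout libraries were below the lowest WT library for Pex6. That library was the male one, at 88.5 CPM, and against it alone the fold change in KO_PBS was -0.41.

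The other peroxins did not pass. Pex14, the second docking protein, averaged 41.0 ± 7.31 CPM in KO_PBS and 55.8 ± 4.59 CPM in WT, a log2 fold change of -0.45 ± 0.17 (edgeR adjusted p = 0.0915). Pex11a ranged widely, from 7.42 to 15.7 CPM in KO_PBS and from 13.4 to 20.5 CPM in WT (-0.49 ± 0.38, edgeR adjusted p = 0.398). Pex26, the anchor of Pex6, had near-equal levels, 30.7 ± 3.69 CPM in KO_PBS and 31.5 ± 6.43 CPM in WT. Its log2 fold change was -0.04, with a 95% interval of -0.43 to 0.36 (edgeR adjusted p = 0.907).

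Among the lipid enzymes, the fold changes in KO_PBS against WT spanned -2.53 to -0.49. Acox2, the branched-chain acyl-CoA oxidase that acts on bile acid intermediates, had 49.0, 21 and 51.4 CPM in KO_antimiR21 kidneys, 9.12, 31.0 and 34.3 CPM in KO_PBS kidneys and 159, 62.3 and 208 CPM in WT kidneys. No knockout library reached the lowest WT value, and the log2 fold change of -2.53 ± 0.60 was the largest fall of the 30 genes (edgeR adjusted p = 0.0175). The lowest WT value, 62.3 CPM, came from the male WT library. The related oxidase gene Acox3, for branched acyl-CoAs such as pristanoyl-CoA, averaged 132 ± 42.0 CPM in KO_PBS and 213 ± 106 CPM in WT, overlapping between groups (-0.69 ± 0.39, edgeR adjusted p = 0.241).

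The bifunctional enzymes, which hydrate and then dehydrogenate the enoyl-CoA that the oxidases make, did not pass. Ehhadh, the L-specific form, had 65.1, 208 and 242 CPM in KO_PBS kidneys and 644, 448 and 293 CPM in WT kidneys. The groups did not overlap, but the spread in each was wide (-1.43 ± 0.49, edgeR adjusted p = 0.0629). Hsd17b4, the D-specific form, averaged 145 ± 33.1 CPM in KO_PBS and 208 ± 31.6 CPM in WT (-0.53 ± 0.22, edgeR adjusted p = 0.113).

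The thiolases release the acetyl-CoA unit at the end of each round. Acaa1b had 460, 148 and 328 CPM in KO_antimiR21 kidneys, 73.4, 153 and 192 CPM in KO_PBS kidneys and 496, 324 and 686 CPM in WT kidneys, and KO_PBS lay wholly below WT (-1.85 ± 0.49, edgeR adjusted p = 0.025). Its near-copy Acaa1a averaged 128 ± 19.3 CPM in KO_PBS and 180 ± 19.9 CPM in WT and did not pass (-0.49 ± 0.16, edgeR adjusted p = 0.0583). The coding sequences of this pair are 96.5% identical, so reads can be split between them in counting and both values are uncertain. The 250 bases before the start sites, by contrast, aligned at 48.2% identity, and they are printed here 5′ to 3′ on the coding strand from RefSeq (GRCm38.p6), Acaa1a at chr9:119341044-119341293 on the plus strand and Acaa1b at chr9:119157094-119157343 on the minus strand.
Acaa1a: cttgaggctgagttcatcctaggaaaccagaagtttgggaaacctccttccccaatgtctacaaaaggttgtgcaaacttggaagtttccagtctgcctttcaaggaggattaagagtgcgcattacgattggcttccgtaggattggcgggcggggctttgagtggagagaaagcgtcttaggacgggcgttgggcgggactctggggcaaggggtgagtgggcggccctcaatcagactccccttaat
Acaa1b: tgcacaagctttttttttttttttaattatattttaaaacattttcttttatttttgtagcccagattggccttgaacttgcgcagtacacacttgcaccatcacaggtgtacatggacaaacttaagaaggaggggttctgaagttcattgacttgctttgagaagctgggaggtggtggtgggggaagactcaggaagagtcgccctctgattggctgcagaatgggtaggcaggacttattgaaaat
The GC box GGGCGG (searched on both strands) was found in the Acaa1a promoter and not in that of Acaa1b, and CCAAT was found in both.

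Scp2, whose products are a thiolase for branched chains and a sterol carrier protein, had 461, 369 and 686 CPM in KO_antimiR21 kidneys, 233, 392 and 397 CPM in KO_PBS kidneys and 818, 814 and 670 CPM in WT kidneys. The KO_PBS and WT libraries were far apart, with a log2 fold change of -1.17 ± 0.28 (edgeR adjusted p = 0.0177), and 1 KO_antimiR21 library reached the WT range. Phyh, the phytanoyl-CoA hydroxylase that opens alpha-oxidation, had 363, 240 and 593 CPM in KO_antimiR21 kidneys, 147, 272 and 283 CPM in KO_PBS kidneys and 470, 754 and 449 CPM in WT kidneys (-1.25 ± 0.38, edgeR adjusted p = 0.0425). Hacl1, the lyase that follows Phyh in alpha-oxidation, averaged 35.2 ± 1.94 CPM in KO_PBS and 56.9 ± 42.2 CPM in WT and did not pass (-0.69 ± 0.49, edgeR adjusted p = 0.352). Amacr, the racemase for branched acyl-CoAs, averaged 67.7 ± 34.3 CPM in KO_PBS and 157 ± 89.9 CPM in WT (-1.21 ± 0.55, edgeR adjusted p = 0.144).

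The auxiliary enzymes for unsaturated chains were lower in KO_PBS for Ech1 and Decr2. Ech1, a dienoyl-CoA isomerase also found in mitochondria, had 308, 205 and 304 CPM in KO_antimiR21 kidneys, 150, 194 and 225 CPM in KO_PBS kidneys and 287, 338 and 369 CPM in WT kidneys (KO_PBS against WT -0.80 ± 0.21, edgeR adjusted p = 0.026). Decr2, the peroxisomal dienoyl-CoA reductase, had 35.7, 33.9 and 42.8 CPM in KO_antimiR21 kidneys, 23.0, 29.9 and 31.6 CPM in KO_PBS kidneys and 65.8, 39.9 and 54.4 CPM in WT kidneys (-0.92 ± 0.20, edgeR adjusted p = 0.0131). In both genes KO_PBS lay below WT without overlap, and in Decr2 KO_antimiR21 lay wholly above KO_PBS. Pecr, an enoyl-CoA reductase, averaged 106 ± 56.3 CPM in KO_PBS and 289 ± 127 CPM in WT, also without overlap, and did not pass (-1.44 ± 0.53, edgeR adjusted p = 0.081).

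Of the enzymes that release or export the products, the thioesterase gene Acot8 had 20.5, 16.4 and 18.2 CPM in KO_antimiR21 kidneys, 12.7, 15.1 and 17.4 CPM in KO_PBS kidneys and 25.9, 20.6 and 27.7 CPM in WT kidneys. All 6 knockout libraries were below the lowest WT library, and the log2 fold change in KO_PBS against WT was -0.71 ± 0.17 (edgeR adjusted p = 0.0194). Crot, the carnitine octanoyltransferase, averaged 196 ± 78.2 CPM in KO_PBS and 304 ± 209 CPM in WT, overlapping (-0.64 ± 0.50, edgeR adjusted p = 0.400). Pex3, Pex13, Acaa1b and Acot8 overlap the genes Adat2, Pus10, Dlec1, and Snx21 and Zswim3, in that order, and Pex11a overlaps Wdr93. The library kit does not mark strand, so reads of these neighbours cannot be told apart where they overlap.

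Abcd3, the transporter that brings branched and dicarboxylic acyl-CoAs into the organelle, had 204, 238 and 307 CPM in KO_antimiR21 kidneys, 126, 190 and 217 CPM in KO_PBS kidneys and 368, 350 and 246 CPM in WT kidneys. KO_PBS was wholly below WT (-0.85 ± 0.25, edgeR adjusted p = 0.0389). Abcd4, a member of the same family that acts in lysosomal cobalamin transport, averaged 29.0 ± 3.22 CPM in KO_PBS and 38.8 ± 6.67 CPM in WT (-0.42 ± 0.18, edgeR adjusted p = 0.115). Abcd2, a transporter for very-long-chain acyl-CoAs, was the 1 gene with a positive fold change, 1.87 ± 0.266 CPM in KO_PBS and 1.37 ± 0.911 CPM in WT, with a 95% interval of -0.86 to 1.74 around 0.44 (edgeR adjusted p = 0.632).

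Catalase (Cat), the classical marker enzyme of the organelle, had 533, 300 and 688 CPM in KO_antimiR21 kidneys, 175, 348 and 355 CPM in KO_PBS kidneys and 954, 859 and 789 CPM in WT kidneys. All 6 knockout libraries were below all 3 WT libraries, and KO_PBS reached 0.337 of the WT level (log2 fold change -1.57 ± 0.35, edgeR adjusted p = 0.0133). Both female and male WT libraries were high, and the fold change against the male WT library was -1.53. The Cat promoter is shown because nuclear receptors that control peroxisomal genes bind direct repeats of AGGTCA. Its 250 bases before the start site, chr2:103485154-103485403 on the minus strand of GRCm38.p6 from RefSeq, hold 1 AGGTCA, in capitals, at -204 from the start, and so at -109 do the 60 bases of the Scp2 promoter at chr4:108118624-108118683, also on the minus strand.
Cat: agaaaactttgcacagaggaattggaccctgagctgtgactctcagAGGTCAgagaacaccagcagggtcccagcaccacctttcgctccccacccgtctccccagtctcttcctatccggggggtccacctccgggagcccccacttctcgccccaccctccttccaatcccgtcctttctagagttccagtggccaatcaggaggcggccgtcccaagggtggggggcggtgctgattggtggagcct
Scp2: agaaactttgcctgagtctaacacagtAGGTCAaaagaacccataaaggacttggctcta
Over windows of 250 bases before to 50 after the start, searched on both strands, AGGTCA was found in 3 of the 25 peroxisomal genes with a promoter in the table (Scp2, Phyh and Cat), or 12%, against 15.7% of 11301 tested genes. The direct repeat of AGGTCA with 1 base between the copies was found in none exactly and with up to 2 mismatches in Acox2 and Cat, 8% against 3.88%. GGGCGG was found in 76% against 65.5%, and CCAAT in 48% against 42.1%. A match is a description of letters and says nothing about binding.

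**Figure D2:**
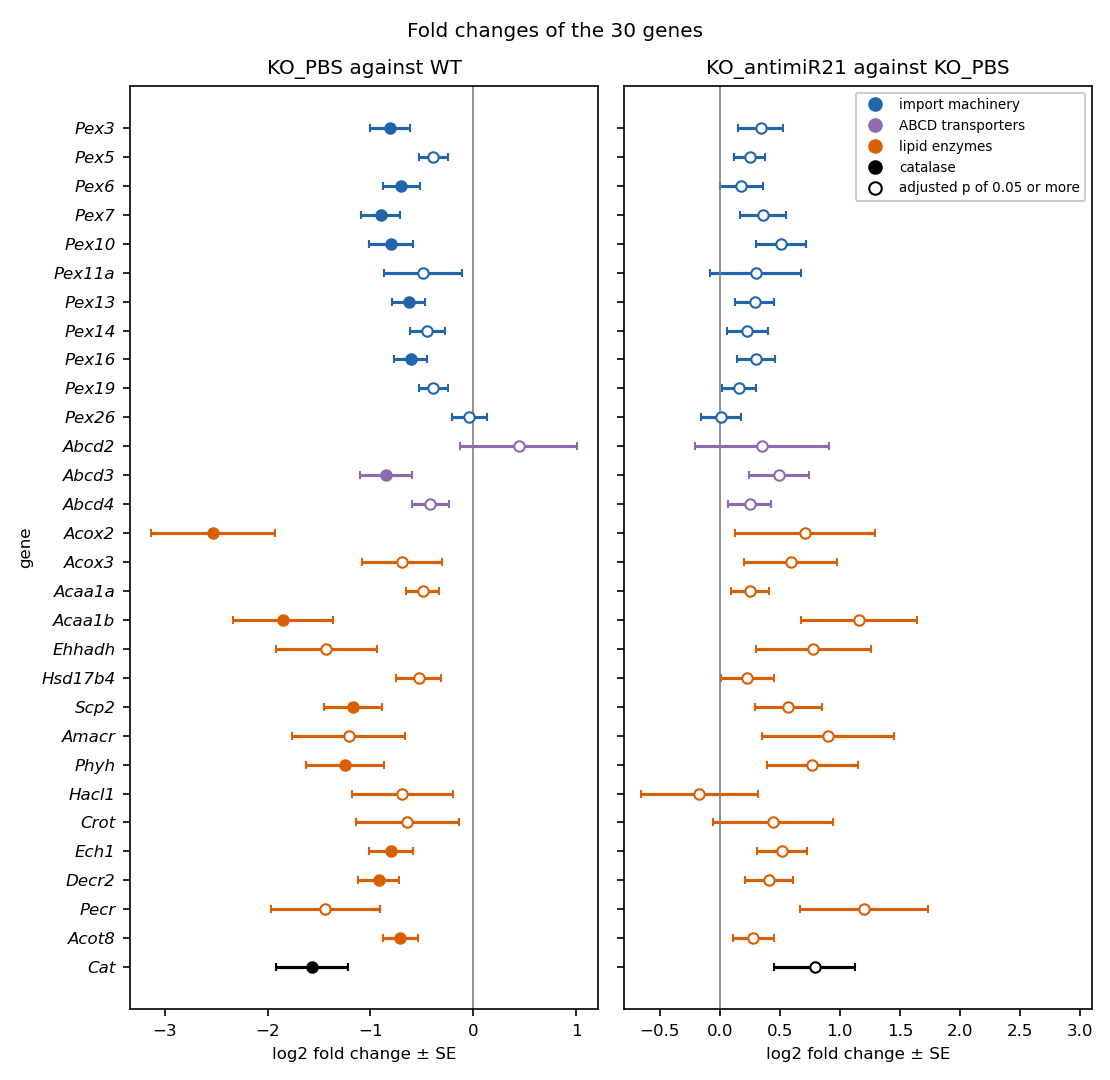
Points are log2 fold changes of the 30 genes with their SE, in KO_PBS against WT (left) and in KO_antimiR21 against KO_PBS (right); filled points have an adjusted p under 0.05 and colours give the class. On the left 29 of 30 points lie below 0 and 15 are filled. On the right 29 of 30 lie above 0 and none is filled. Both sides use the same KO_PBS libraries, so their signs are not independent.

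The import machinery and the lipid enzymes were then compared within each library, as the mean over genes of log2 CPM minus the WT mean of the gene. The lipid enzymes lay further below WT than the import machinery in each KO_PBS library. In KO_PBS 1, 2 and 3 the import machinery stood at -0.80, -0.50 and -0.41 and the lipid enzymes at -1.69, -0.84 and -0.72. Import minus lipid was therefore 0.89, 0.34 and 0.31 in KO_PBS kidneys, against 0.00, -0.06 and 0.06 in WT kidneys, with a pooled SD between replicates of 0.24. In KO_antimiR21 1, 2 and 3 it was 0.03, 0.47 and 0.02, so that only KO_antimiR21 2 lay in the KO_PBS range. These scores over chosen genes carry no test. The medians of the fold changes differed by 0.32 in KO_PBS against WT, and by 0.78 when sex was a term in the fit or only male libraries were used. By count of calls the classes stood close, 54.5% of the import machinery and 46.7% of the lipid enzymes, and the SE was larger for many lipid enzymes than for the peroxins.

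**Figure D3:**
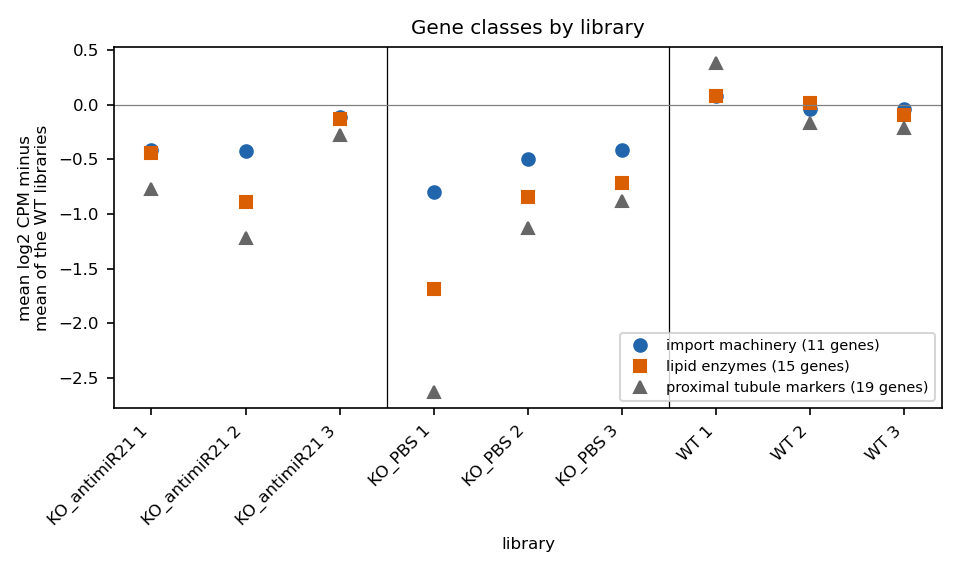
Each point is the mean over a class of genes of log2 CPM minus the mean of the WT libraries, for import machinery (11 genes), lipid enzymes (15 genes) and proximal tubule markers (19 genes), by library. In each KO_PBS library the import machinery is highest, the lipid enzymes lie lower and the proximal tubule markers lowest, down to -0.80 and -1.69 for the peroxisomal classes in KO_PBS 1.

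Markers of tubule cells moved with the peroxisomal genes. Of 19 proximal tubule markers 11 were lower in KO_PBS than in WT and 0 higher (median -1.42), and their summed level was 9030 to 26338 CPM in KO_antimiR21, 3034 to 12391 CPM in KO_PBS and 27513 to 45908 CPM in WT. KO_PBS 1 held the lowest of these sums, and the defining markers Kap and Slc34a1 were above 0 in every library. The sums depended in part on Kap alone. It gave 29908 of the 45908 CPM in the male WT library, against 8298 and 8988 CPM in the female ones. Slc34a1 had 3094 CPM in the male WT library and 3841 and 3972 CPM in the female ones. Markers of the thick limb and distal tubule (5 of 10 lower, median -1.36) and of the collecting duct (6 of 9 lower, median -1.13) were lower too. Macrophage markers (10 of 11 higher, median 3.55), T cell markers (8 of 8 tested higher, median 2.33) and fibroblast and myofibroblast markers (9 of 10 higher, median 2.46) ran the other way. Summed macrophage markers were 609 to 1387 CPM in KO_antimiR21, 1196 to 1300 CPM in KO_PBS and 189 to 260 CPM in WT, and summed fibroblast markers 749 to 1713, 2476 to 3196 and 384 to 401 CPM. Podocyte markers (1 of 6 higher) had a median of 0.28, and hepatocyte markers (1 of 5 tested higher) one of -0.02. The part of these shifts in the peroxisomal values was not tested.

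The WT libraries of the 2 sexes parted on several lipid enzymes. The male WT library differed from the mean of the female WT libraries by more than 1 on the log2 scale for 7 of the 30 genes (23.3%, against 10.4% of all genes), of which 6 were lipid enzymes, 1 was Abcd2 and none a peroxin. Crot, Amacr, Acox3 and Pecr were higher in the male WT library, by 1.57, 1.31, 1.13 and 1.0. Hacl1 and Acox2 were lower in it, by 2.08 and 1.55. Hacl1 had 36.7, 33.0 and 35.8 CPM in KO_PBS kidneys, 17.2 CPM in the male WT library and 101 and 52.2 CPM in the female WT libraries. Against the male WT library alone its fold change in KO_PBS turned to 1.06 ± 0.26, while that of Acox2 was -1.31 ± 0.69. Those of Amacr, Pecr and Crot were -1.92 ± 0.65, -2.0 ± 0.67 and -1.44 ± 0.48. Pex6, Decr2 and Acot8, at -0.41, -0.48 and -0.43, had smaller falls there than against all WT libraries. Pex3, Scp2 and Phyh, at -0.92, -1.23 and -1.67, had larger ones. No gene of the table passed the test in that fit, which rests on 1 WT library and takes its spread from the knockouts. Sex and replicate variation within WT cannot be told apart with 1 male library.

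**Figure D4:**
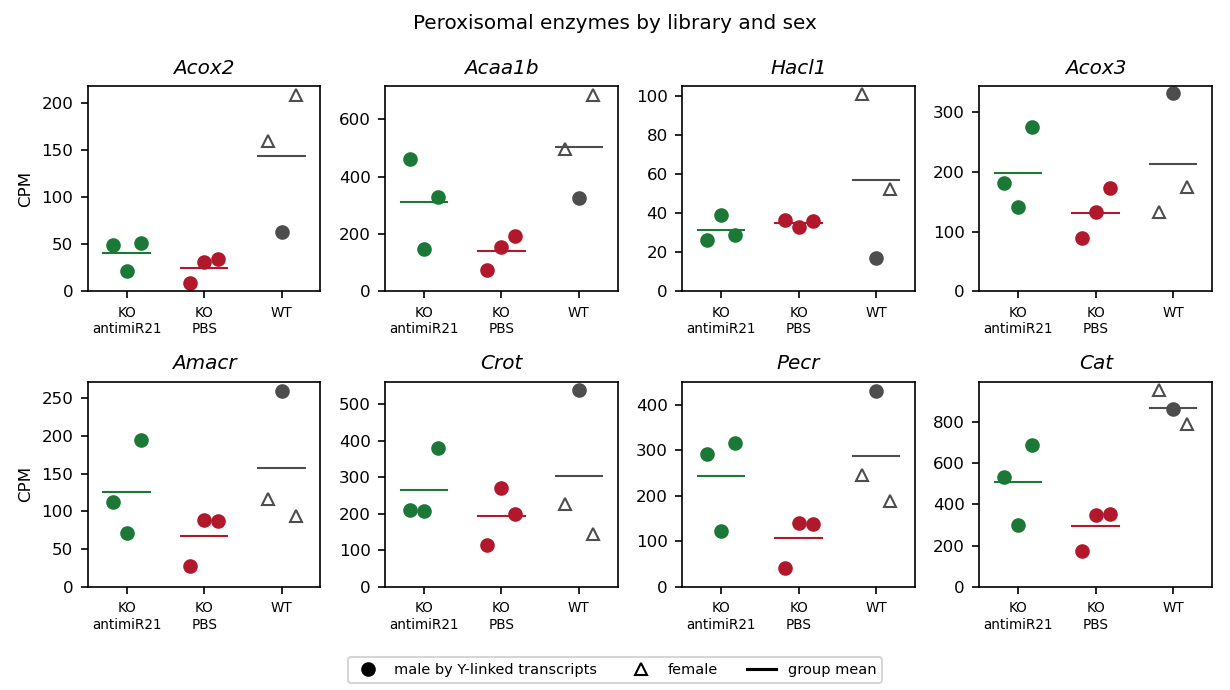
CPM by library for 8 peroxisomal enzymes, with filled circles for male libraries, open triangles for the 2 female WT libraries and lines for group means. The male WT library is the highest for Acox3, Amacr, Crot and Pecr and the lowest for Hacl1 (17.2 CPM), while for Cat it sits among the female WT libraries and above all knockouts.

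In Col4a3-/- kidneys given antimiR-21, most of the peroxisomal genes had mean levels between those of KO_PBS and WT, and none passed the test against KO_PBS. The call count was 0 of 30 and also 0 of all 17315 genes (0% called, edgeR), with 1203 genes (6.95%) at an unadjusted p under 0.05 and 19 genes called by DESeq2, none of them peroxisomal. The fold change was positive for 29 of 30 genes, against 48.1% of all genes, and 5 of 30 had an unadjusted p under 0.05. The same KO_PBS libraries were set against WT above, so the opposite signs in these comparisons are not independent. Medians were 0.29 for the import machinery and 0.57 for the lipid enzymes, against -0.01 for all genes. The lowest p belonged to Ech1, Acaa1b and Pex10. For Ech1 the KO_antimiR21 values of 308, 205 and 304 CPM stood against 150, 194 and 225 CPM in KO_PBS, overlapping at KO_antimiR21 2 (0.52 ± 0.21, edgeR adjusted p = 0.707). Acaa1b was at 1.16 ± 0.48 (edgeR adjusted p = 0.707) and Pex10 at 0.51 ± 0.21 (edgeR adjusted p = 0.707), each also with KO_antimiR21 2 inside the KO_PBS range. Pecr at 1.20 ± 0.53 and Cat at 0.79 ± 0.34 were the others below 0.05 before adjustment, and the 95% interval for Cat, 0.02 to 1.57, leaves the size of the difference wide.

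Only Decr2 had all KO_antimiR21 libraries above all KO_PBS libraries, 1 of 30 genes where 3.83% of all genes did so. KO_antimiR21 3 was the highest of the 6 knockout libraries for 20 of 30 genes, against 21.1% of all genes. KO_antimiR21 2 was the highest for 2 of 30, against 9.86% of all genes. Of the genes with a miR-21 match, Pex7, Pex10, Pex13, Abcd2 and Acot8 had fold changes of 0.36, 0.51, 0.29, 0.35 and 0.28, and the genes with no match lay on both sides of them, from -0.17 for Hacl1 to 1.20 for Pecr. Without KO_PBS 1 the medians were 0.17 for the import machinery and 0.38 for the lipid enzymes, and without KO_antimiR21 3 they were 0.17 and 0.33. Among libraries of the code L5, where KO_PBS 3 alone stands for its group, they were 0.10 and 0.28. Proximal tubule markers differed the same way, with a positive sign for 18 of 19, a median of 0.71 and 0 called.

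Against WT, the KO_antimiR21 kidneys had negative fold changes for 29 of 30 genes, against 54.2% of all genes. The test was passed by 0 of 30, where 7.15% of all genes were called and 0.427% were called lower. The medians were -0.29 for the import machinery and -0.43 for the lipid enzymes. They were -0.18 and -0.25 without KO_antimiR21 2, and that of the lipid enzymes was -0.28 without WT 2. All KO_antimiR21 libraries had the code L5 and all WT libraries L4. With the code as a term, which rests on the split within KO_PBS, the medians were -0.48 and -0.85 and 0 genes of the table were called. The comparison shares its WT libraries with that of KO_PBS, so the values are set side by side without a test of their likeness. Cat was at -0.77 ± 0.34 in KO_antimiR21 and -1.57 ± 0.35 in KO_PBS, and Acox2 at -1.82 ± 0.59 and -2.53 ± 0.60. Pex7 was at -0.54 ± 0.19 in KO_antimiR21 and -0.90 ± 0.19 in KO_PBS, and Scp2 at -0.60 ± 0.28 and -1.17 ± 0.28. For 5 of 30 genes (Pex6, Pex7, Acox2, Acot8 and Cat) every KO_antimiR21 library stayed below every WT library, against 9.83% of all genes. Acox2 passed with DESeq2, in a fit that held the female WT libraries. All KO_antimiR21 libraries were male, so these differences hold sex in part. Against the male WT library alone, Acox2 was at -0.59, Cat at -0.73, Pex7 at -0.51 and Scp2 at -0.66. Falls were smaller there for Acaa1b (-0.02) and Decr2 (-0.06) and larger for Phyh (-0.89) and Amacr (-1.02). The sign was positive there for Hacl1 (0.90), Pex26 (0.21), Abcd4 (0.13), Pex11a (0.06) and Abcd2 (0.01). Of these only Abcd2 was positive against all WT libraries. The medians there were -0.22 for the import machinery and -0.58 for the lipid enzymes. That library cannot part sex from replicate variation.

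Other genes of the organelle, taken from lists of known peroxisomal genes, had the same main direction in KO_PBS against WT. Of 14 further genes of biogenesis, membrane and division 6 were lower and 0 higher, with a median of -0.51, where 9.85% of all genes were called lower and 14.6% higher and their median was -0.03. Pxmp2, a channel protein of the peroxisomal membrane, was at -2.23 ± 0.44 (edgeR adjusted p = 0.00842), and the processing protease Tysnd1 at -0.67 ± 0.18 (edgeR adjusted p = 0.0287). Of 39 further enzymes tested 15 were lower and 2 higher, with a median of -0.73. Gstk1, a glutathione transferase, was at -1.88 ± 0.33, the peroxiredoxin Prdx5 at -1.23 ± 0.26 and the hydroxyacid oxidase Hao2 (row Hao3) at -2.31 ± 0.50, with edgeR adjusted p-values of 0.00489, 0.0117 and 0.0119. The higher genes were Xdh and Uox. Xdh, xanthine dehydrogenase, which is mainly cytosolic, had 52.2, 44.5 and 58.6 CPM in KO_PBS and 28.6, 19.0 and 29.1 CPM in WT (1.01 ± 0.27, edgeR adjusted p = 0.0278). Uox, urate oxidase, had 0.548, 0.634 and 0.435 CPM in KO_PBS and 0, 0.0401 and 0.0402 CPM in WT (edgeR adjusted p = 0.0114), which are very low levels.

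Of 10 nuclear receptors and other regulators of these genes, 2 were lower in KO_PBS and 0 higher, where 9.85% of all genes were called lower. Esrra, the estrogen-related receptor alpha of oxidative metabolism, had 121, 85.2 and 115 CPM in KO_antimiR21 kidneys, 66.4, 77.7 and 88.4 CPM in KO_PBS kidneys and 147, 129 and 150 CPM in WT kidneys, with a log2 fold change in KO_PBS against WT of -0.88 ± 0.17 (edgeR adjusted p = 0.00729). Ppara, the fatty acid receptor that induces peroxisomal oxidation in rodent liver, had 8.72, 38.6 and 29.1 CPM in KO_antimiR21 kidneys, 7.78, 17.6 and 36.9 CPM in KO_PBS kidneys and 49.5, 16.0 and 14.8 CPM in WT kidneys. Its values spread several-fold within each group, and the fold change of -0.37 ± 0.71 did not pass (edgeR adjusted p = 0.761).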

How the data were processed

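RNA of whole kidney was made into TruSeq RNA v2 libraries from 150 ng of total RNA, per the labels' protocols. The authors deposited expected counts per gene symbol for each library and a matrix of log2 values, and the submitters' processing notes name mm9, Bowtie, RSEM and limma without versions. Expected counts were rounded to whole numbers. The deposited log2 matrix was used in 1 alternative.

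One edgeR 4.0.16 quasi-likelihood fit (R 4.3.3) with TMM scaling covered all 9 libraries with 3 group means, 17315 symbols passing filterByExpr and Benjamini-Hochberg adjustment over all of them, at 0.05. SE values derive from log2 fold change and F statistic. The procedure was tested on simulated data. Alternatives used DESeq2 1.42.0, limma 3.58.1, other scalings and filters, sex or library code as terms, male libraries, a replicate block and leaving out each library.

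The 30 genes and all lists were chosen with earlier results of these data known. Values per library are given for each gene called and the 3 of lowest p in KO_antimiR21 against KO_PBS. The further peroxisomal genes named are those called with the 3 lowest p in each direction per list, and of the regulators each called gene and Ppara, except 2 genes whose values are not reported here. No pair of replicates differed by as little as sampling noise. Sequences come from RefSeq (GRCm38.p6) and GENCODE vM21, matched by symbol, with 82.4% of tested symbols found, and no coordinate was converted from mm9. Promoters of 25 of the 30 genes were used. Mff had no row.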

Additional observations from a re-analysis of the deposited data

How the results depend on the processing

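In KO_PBS against WT, the 15 calls became 6 under library-size scaling and 0 with sex as a term. They numbered 3 to 13 when a KO_PBS or WT library was left out, and 14 or 15 when a KO_antimiR21 library was. With sex as a term and in male libraries the lipid median was -1.26 and -1.23, against -0.92 in the main fit. The import median was -0.48 and -0.45, against -0.61. Single genes moved both ways. In male libraries Acox2 went from -2.53 to -1.31 and Acaa1b from -1.85 to -1.19, while Phyh went from -1.25 to -1.67 and Amacr from -1.21 to -1.92. Counts stayed within 1.5 times under the other scalings, filters and tools. Library-size scaling moved the median of all genes to 0.25 (to 0.11 in KO_antimiR21 against WT, where the import machinery stood at -0.16), and relative to it the import machinery stood at -0.58 in both scalings. Under it 5.22% of all genes were called lower, against 9.85% in the main fit, and 19.4% of all calls were lower, against 40.3%. DESeq2 called 19, where 13.6% of all genes were called lower. The import minus lipid median of 0.32 was 0.78 with sex as a term and 0.78 in male libraries. In KO_antimiR21 against WT, DESeq2 called 1 (Acox2), where 2.28% of all genes were called lower. Leaving out a library gave 0 to 1, with Hacl1 called without WT 2 and Pex7 without KO_antimiR21 3. Those fits called 0.898% and 0.767% of all genes lower. Without WT 2 only female WT libraries stood against male knockouts, so group and sex cannot be told apart there. Against the male WT library alone, Hacl1 was at 0.90 in KO_antimiR21. Same-numbered libraries did not deviate together (correlations from -0.311 to 0.403). A fit with a replicate block called 11 in KO_PBS against WT, where 6.52% of all genes were called lower. The cause of these shifts was not tested. Having 3 libraries a group limits the precision.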
